A study of Homo sapiens with 6 samples.

Results

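Untreated MM.1S cells, the solvent control of a study of lenalidomide resistance, were described here by the absolute level of every gene listed for them. MM.1S is an established human multiple myeloma line, a cancer of antibody-secreting plasma cells, and it is known to carry a translocation that joins the transcription factor gene MAF to the immunoglobulin heavy chain locus. The members were taken as the 3 WT libraries out of 6 in the series, and all 12760 genes of the deposited table of FPKM (fragments per kilobase of gene, scaled to the mapped fragments of the library) were read in them. The other 3 libraries come from cells selected in rising lenalidomide and were not compared here.

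The WT cells, labelled as tumor cells of genotype WT, received DMSO, the solvent, without drug while the resistant line was being selected over 3 months. The RPMI medium held fetal bovine serum and antibiotics. Total RNA was made into libraries with a VAHTS universal kit. The 3 libraries are labelled biological replicates, but nothing in the labels says that they came from separate cultures, so each SD given here measures the spread between these samples, which may be technical. All 3 come from 1 line, and the levels stand for that line alone.

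Plasma cells arise from B cells when IRF4, PRDM1 and XBP1 replace the B cell programme and switch the cell to secretion. They enlarge the endoplasmic reticulum (ER), where nascent antibody is translocated, folded, disulfide-bonded, glycosylated and checked, and where the unfolded protein response tunes folding capacity to load. Myeloma cells keep much of this programme and add oncogene activity, commonly MYC together with a D cyclin.

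The 3 WT libraries held 17387914, 16412908 and 14685382 reads over the listed genes, recovered from the steps between FPKM values. The median gene had 514.5 reads in a library. Over genes, log2(FPKM + 1) correlated at r = 0.998 between replicates 1 and 2, 0.9942 between 1 and 3 and 0.9938 between 2 and 3, a description across genes that are not independent. By the mean over genes, no pair differed by less than counting noise. The mean chi-square per gene, which counting alone holds near 1, was 1.837 for replicates 1 and 2. It was 13.21 for replicates 1 and 3 and 13.69 for 2 and 3. The median chi-square was 0.5313, 2.459 and 2.543 for the same pairs, so replicates 1 and 2 were the closest pair by both measures. Replicate 3 stood apart by gene length. Among genes at 1 FPKM or more, its median ratio to the mean of the other 2 libraries was 0.8371 for genes of up to 500 bases, 0.85 for those up to 1000 bases and 1.023 between 2000 and 4000 bases. Between replicates 2 and 1 it stayed between 0.9971 and 1.012 in all 6 length classes.

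**Figure D1:**
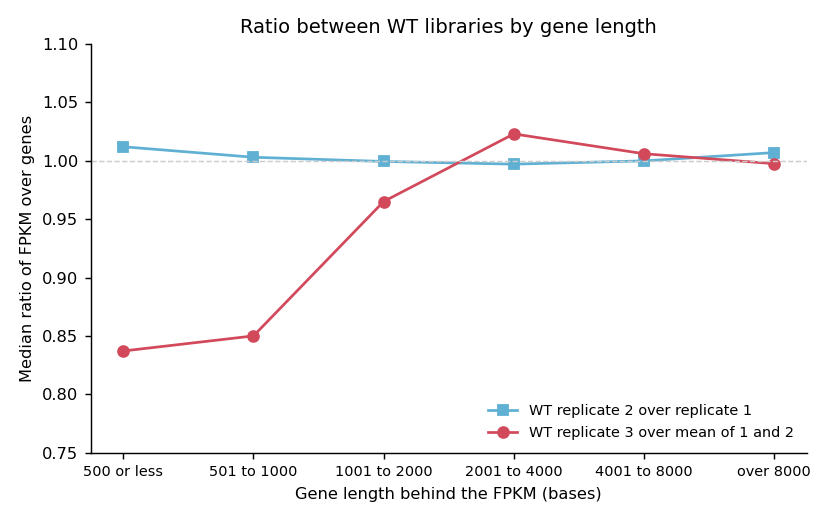
Median ratio of FPKM between WT libraries (vertical axis) for genes at 1 FPKM or more, in 6 classes of the gene length behind the FPKM (horizontal axis, bases). Replicate 3 lies at 0.8371 and 0.85 of the other libraries for the 2 shortest classes and between 0.9651 and 1.023 for longer genes, while replicate 2 over replicate 1 stays near 1.

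Levels spanned almost the whole range that the reads allow. The median gene stood at 9.79 FPKM (mean of 3 libraries), with quartiles of 2.76 and 25.9 FPKM. A mean of at least 100 FPKM, called high here, was reached by 665 genes (5.21% of all), and 22 genes reached 1000 FPKM. A mean under 1 FPKM, called low here, was found for 1539 genes (12.1%). Counts of high or low list members below are to be read beside these shares. Counts of members with a row stand beside 57.87% over all protein-coding genes. The top 10% of genes (1276 genes) began at 60.3 FPKM and held 61.13% of the summed FPKM. The 2 highest genes alone held 4.677% of the summed FPKM and 3.281% of all reads.

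The highest gene was IGLL5, an immunoglobulin lambda-like gene inside the lambda light chain locus, at 10566, 10205 and 10747 FPKM in WT replicates 1, 2 and 3. In GENCODE v29 (GRCh38), its exons at chr22:22887780-22896107 cover all 460 exon bases of the lambda constant gene IGLC1 on the same strand, so reads of IGLL5 and of IGLC1 cannot be told apart. The second highest was ITGB7, the integrin beta-7 chain that pairs with alpha-4 or alpha-E and is a known target of MAF. It measured 7179, 7181 and 8280 FPKM (7546 ± 635, SD, n = 3) from 1049318 reads in all, and the gap to ACTB (cytoplasmic beta-actin), rank 3, at 2552 ± 206 FPKM, was wider than the spread of either. JCHAIN, the chain that joins IgA and IgM subunits, came next, at rank 4, with 2404, 2423 and 1871 FPKM, a range that overlapped that of ACTB (2408 to 2788 FPKM).

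Of the 30 highest genes, 14 encode ribosomal proteins, led by RPLP0 (1832 ± 9.59 FPKM) and RPLP1 (1567 ± 349 FPKM). EEF1A1 and EEF2, the main elongation factors, stood at 1586 ± 7.11 and 1259 ± 116 FPKM. The glycolytic enzyme GAPDH measured 1775 ± 185 FPKM, the actin-binding peptide gene TMSB4X 1406 ± 332 FPKM and the alpha-tubulin TUBA1B 1096 ± 103 FPKM. HSPA8 and HSP90AB1, constitutive cytosolic chaperones, had 1169 ± 7.57 and 915 ± 13.8 FPKM, and FTL, the ferritin light chain, 885 ± 11 FPKM. MIR3654 was listed at rank 5 with 2069 ± 77.7 FPKM, but its 11275 reads were divided by a length of 112 bases although its RefSeq locus spans 56 bases, and that locus lies inside the gene CHCHD3 and the pseudogene locus LOC729998, so they cannot be told apart from those loci.

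**Figure D2:**
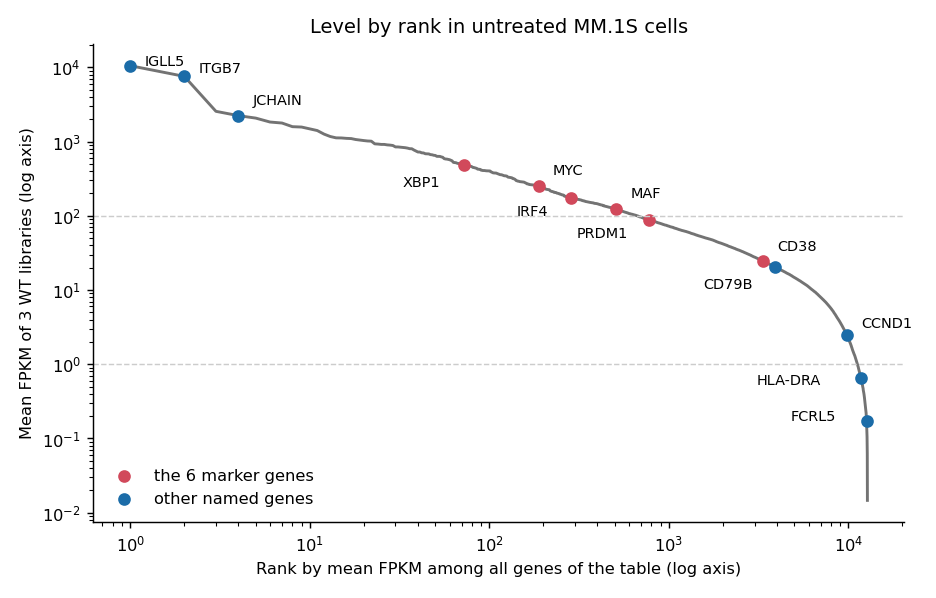
Mean FPKM of the 3 WT libraries (vertical log axis) against rank among 12760 genes (horizontal log axis), with dashed lines at 100 and 1 FPKM. IGLL5 and ITGB7 stand apart at the left end, the 6 marker genes (red) lie between rank 72 (XBP1) and rank 3350 (CD38), and HLA-DRA and FCRL5 lie under 1 FPKM.

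All 6 genes used to mark the line had a row, and 4 of them were high. XBP1, the transcription factor that expands the secretory apparatus, measured 476, 487 and 485 FPKM, rank 72. MYC, the growth-promoting transcription factor, measured 238, 233 and 281 FPKM, rank 188. IRF4, on which myeloma cells are known to depend, had 177, 172 and 178 FPKM, rank 285. MAF had 126, 124 and 119 FPKM, rank 510. PRDM1, the repressor of the B cell programme, had 83.3, 84.2 and 97.3 FPKM, rank 773. CD38, a surface enzyme and antibody target, was the lowest of the 6 at 24.5, 24.8 and 23.5 FPKM, rank 3350. In this order no 2 neighbouring genes overlapped in their ranges over the 3 libraries. XBP1, IRF4 and PRDM1, which define plasma cells, all lay in the top 10%, and CD38 lay above the median gene but outside the top 10%. These are bulk values, in which fewer cells with a transcript and less transcript per cell cannot be told apart.

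The wider list of plasma cell transcription factors was less uniform. Of 25 genes 23 had a row, 4 were high, 1 was low, and the list median was 23.2 FPKM against 9.79 FPKM for all genes. TCF3, an E protein of the B lineage, followed XBP1 and IRF4 at 152 ± 17.7 FPKM and POU2AF1, the octamer coactivator, was next at 118 ± 3.5 FPKM. Its partner factors were far lower, POU2F1 at 3.85 FPKM and POU2F2 at 3.73 FPKM. IKZF1 (24.3 ± 1.07 FPKM) and IKZF3 (23.2 ± 0.905 FPKM), lymphoid zinc finger factors that lenalidomide directs to degradation, lay next to each other, and their ranges overlapped. The lowest listed member was ZBTB20 (0.126 FPKM), while EBF1 and MEF2B had no row.

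Surface proteins of plasma cells ranged over more than 4 orders of magnitude. The list of 27 genes had 21 with a row, 10 high and 3 low, and a median of 75 FPKM. After ITGB7 came BST2, a tetherin restriction factor, at 444, 440 and 380 FPKM, and SDC1 (CD138, the syndecan that marks plasma cells) at 242, 253 and 270 FPKM. TNFRSF17 (BCMA, receptor of the survival factors BAFF and APRIL) measured 247, 254 and 207 FPKM, SLAMF7 (an adhesion receptor) 205, 207 and 208 FPKM and GPRC5D (an orphan receptor) 166, 172 and 180 FPKM. The range of TNFRSF17 overlapped those of SDC1 and SLAMF7, and GPRC5D lay below all of them in every library. The lowest listed members were NCAM1 (0.785 FPKM), CD226 (0.464 FPKM) and FCRL5 (0.17 ± 0.0703 FPKM, 16, 9 and 19 reads). CD27, CD81, LY6E, FCRL2, TNFRSF13C and TNFRSF18 had no row. Of the antigens aimed at by current antibody or cell therapies, BCMA, SLAMF7 and GPRC5D transcripts each exceeded CD38 in every library, and FCRL5 was below CD38 in every library.

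**Figure D3:**
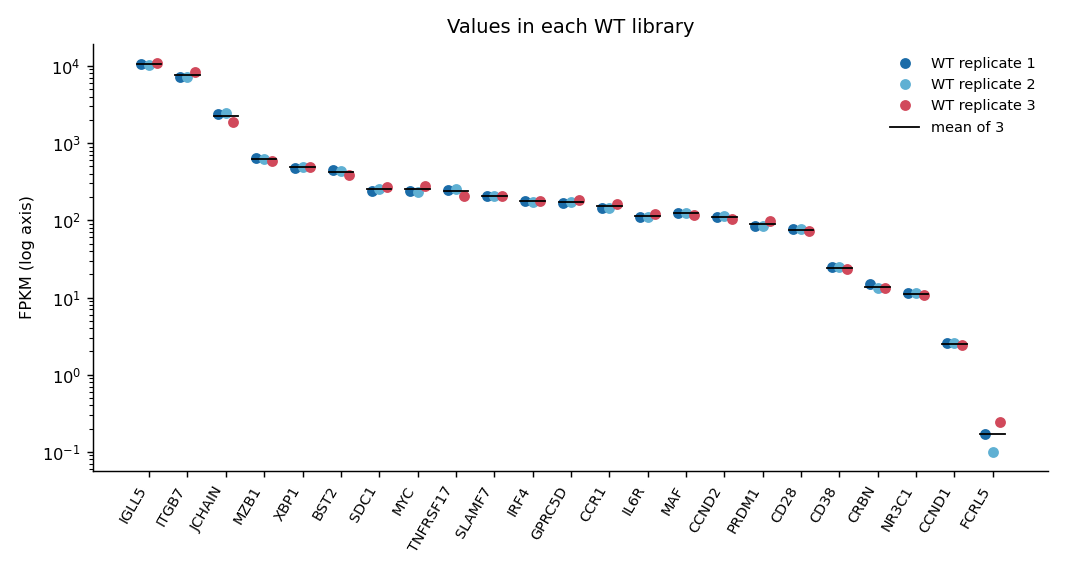
FPKM (vertical log axis) of 23 genes in each WT library, set from high to low with IL6R just before the higher MAF; points are libraries and black bars their means. Spread between libraries is small against the distance between most genes, and JCHAIN and TNFRSF17 show replicate 3 (red) below the other 2.

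Of the immunoglobulin genes themselves, no constant gene had a row: IGKC, IGLC1, IGLC2, IGLC3, IGLC7 and all 9 listed heavy chain constant genes were not analysed here, nor was the surrogate light chain gene IGLL1. The antibody signal therefore rests on IGLL5 and JCHAIN. The 11 members of this list with a row, which also holds plasma cell secretory genes, had a median of 190 FPKM. MZB1, an ER cochaperone of antibody assembly, measured 633, 630 and 579 FPKM and the kinase PIM2 505, 494 and 562 FPKM. TENT5C, which lengthens the poly(A) tails of antibody transcripts, had 190 ± 11.3 FPKM.

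Genes of earlier B cells were unevenly represented. Of 31 listed, 17 had a row, a share near the 57.87% of all protein-coding genes, and those without a row included MS4A1 (CD20), PAX5, CD79A and CD22. The 17 had a median of 9.3 FPKM, near the 9.79 FPKM of all genes; 1 was high and 3 were low. CD74, the invariant chain of MHC class II, was the high one at 561, 548 and 631 FPKM. CD37 (34.3 FPKM), SYK (21.3 FPKM) and CD79B (20.4 ± 1.66 FPKM) followed, and MME (CD10), SPIB and BCL6, the germinal centre repressor, lay at 0.758, 0.646 and 0.552 FPKM.

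Markers of other lineages were checked for the whole lists. Over all protein-coding genes 57.87% had a row, and the rule for listing genes is not given in the sources used here. For T and NK cells 5 of 28 had a row, summing to between 77.2 and 81.1 FPKM in a library, of which CD28 alone gave 76.1, 76.3 and 72.6 FPKM. CD28 is also known from myeloma cells. CD3E had 2.61 FPKM, and CD3D, CD3G, CD2, CD4, CD8A, LCK and the T cell receptor constant genes had no row. For myeloid cells 3 of 22 had a row (SPI1 at 19.1, CD68 at 14.2 and CD33 at 2.05 FPKM), summing to between 32.4 and 40.5 FPKM, with no row for CD14, LYZ or MPO. For red cells and platelets 4 of 18 had a row, summing to between 41.8 and 44.8 FPKM. HBD, the delta-globin, stood at 32.1, 33.3 and 29.1 FPKM and HBB, the beta-globin, at 5.83, 7.03 and 7.11 FPKM, so that HBD lay above HBB in every library, and HBA1 and HBA2 had no row. For epithelial, stromal and endothelial cells 5 of 22 had a row, VIM (vimentin) at 289 ± 10.3 FPKM and the others from 0.259 FPKM (COL1A1) to 7.67 FPKM (FN1). The part of other cells in these values was not tested.

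Before low values are read, 3 properties of the table bear on them. First, of 172 protein-coding RefSeq genes in the MHC region (chr6:28503296-33457544), 63 had a row (36.63%, against 57.87% of 20037 protein-coding genes), and their median was 0.49 FPKM against 10.8 FPKM. Low values were found for 45 of the 63 (71.43%, against 10.95% of all protein-coding genes with a row). Further, the gene length behind the FPKM exceeded 1.2 times the gene's own span on the chromosome for 45 of these 63 genes, and for 68 protein-coding genes in all. TAP1, a peptide transporter subunit, was divided by 25160 bases although its RefSeq span is 8496 bases, so the length counted there covers more than the 1 locus. Last, genes that are part of a named readthrough locus (178 with a row) had a median of 4.84 FPKM, and 2 of them were high (1.124%, against 5.554%), while 23 were low (12.92%, against 10.95%) and 54.6% had a row. How reads with several placements or several genes were counted is not given in the sources used here, and a low value of such a gene cannot be told apart from lost reads.

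**Figure D4:**
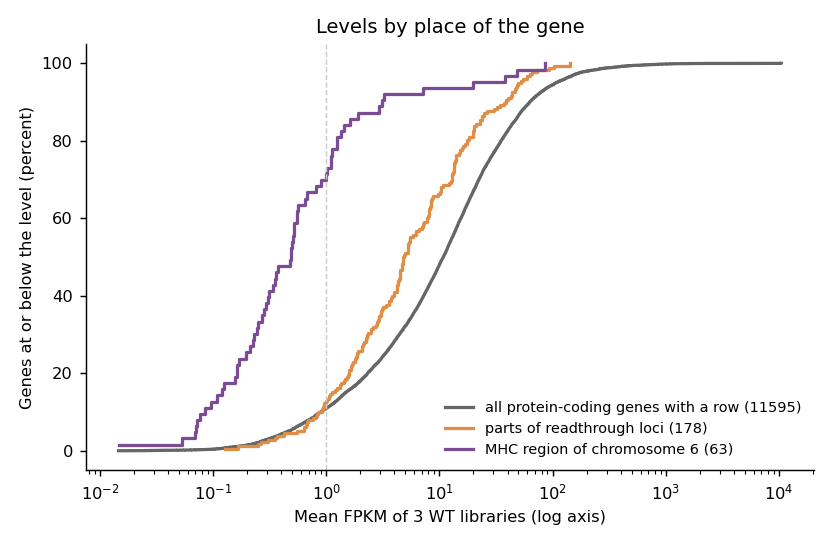
Cumulative share of genes (vertical axis, percent) at or below each mean FPKM (horizontal log axis) for 11595 protein-coding genes with a row, 178 parts of readthrough loci and 63 genes of the MHC region. The MHC curve lies far to the left, with 71.43% of its genes under 1 FPKM (dashed line) against 10.95% overall.

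The antigen presentation list sits largely in that region. HLA-B and HLA-C, classical class I heavy chains, measured 85.6 ± 3.87 and 37.9 ± 0.735 FPKM, divided by lengths of 9432 and 11053 bases for spans of 3305 and 3344 bases. B2M, the class I light chain on chromosome 15, had 204, 193 and 138 FPKM. TAP1 (0.0706 FPKM), HLA-E (0.251 FPKM), HLA-DPB1 (0.272 FPKM), HLA-DRB1 (0.547 FPKM) and HLA-DRA (0.652 ± 0.0763 FPKM) were low and are uncertain for the reason above. CIITA, the class II transactivator on chromosome 16, stood at 6.21, 7.05 and 7.07 FPKM, outside that region. Values of 8 of the 16 members with a row were low.

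Secretory machinery was high as a group. Of the 37 genes of the translocon, signal recognition particle, oligosaccharyltransferase and signal peptidase, 36 had a row, 18 were high and 26 lay in the top 10% (list median 108 FPKM, against 9.79 FPKM). SSR2, a translocon-associated subunit, led at 388, 380 and 368 FPKM, followed by SPCS1, SRP9 and SEC11C at 261, 261 and 255 FPKM. SEC61A1, which forms the channel, had 248 ± 11.8 FPKM and the small subunit SEC61B 246, 250 and 185 FPKM. The lowest were SEC61A2, the second channel gene (3.82 FPKM), SRP19 (15.4 FPKM) and SEC63 (24.7 FPKM), and the oligosaccharyltransferase subunit TUSC3 had no row. The median ratio of replicate 3 to the other libraries was 0.8507 in this list, and the long genes SSR1, SEC62 and SEC63 had ratios of 0.8612, 0.8468 and 0.8683. The part of gene length in this was not tested.

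Folding factors were led by CALR (calreticulin, a lectin chaperone) at 631, 625 and 639 FPKM. MZB1 followed, then P4HB (protein disulfide isomerase) at 460, 458 and 538 FPKM and HSP90B1 (GRP94) at 494, 491 and 465 FPKM. HSPA5 (BiP, the main ER Hsp70) had 220, 213 and 213 FPKM, below CALR, P4HB and HSP90B1 in every library. Of 36 genes 34 had a row, 16 were high and 1 was low, with a median of 52.8 FPKM. The low one was ERO1B, an oxidase, at 0.85 FPKM, while its paralog ERO1A stood at 15.6 FPKM. TXNDC5 (13.4 FPKM) is part of a readthrough locus.

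In the list of the unfolded protein response and ER-associated degradation, all 34 genes had a row, 6 were high and the median was 33.2 FPKM. HERPUD1, a ubiquitin-like regulator of degradation, stood at 407, 402 and 401 FPKM, the extraction ATPase VCP at 254 ± 8.27 FPKM and the stress factor ATF4 at 241 ± 6.58 FPKM. The sensors were lower: ERN1 (IRE1) at 31.6 ± 3.2 FPKM, EIF2AK3 (PERK) at 19.4 FPKM and ATF6 at 18.6 FPKM. DDIT3 (CHOP), a factor of terminal stress, had 6.84 ± 0.275 FPKM. DERL3 (2.47 FPKM) and ATF6B (1.89 FPKM) were the lowest, the former divided by a length of 6400 bases for a span of 4504 bases and the latter in the MHC region.

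Vesicle transport genes (COPII, COPI and Golgi) all had a row, 40 of 40, with a median of 42.9 FPKM, 5 high and 1 low. ARF1, the small GTPase that recruits COPI, had 352, 343 and 404 FPKM. KDELR1, the receptor that returns chaperones to the ER, TMED9 and LMAN2 stood at 184, 183 and 179 FPKM, and KDELR3 at 0.6 FPKM. Among paralogs of the COPII coat, SEC23B (42.9 FPKM) exceeded SEC23A (6.3 FPKM) and SEC24C (75.7 FPKM) exceeded SEC24A, SEC24B and SEC24D (8.81, 8.74 and 25.1 FPKM). Proteasome subunits, 38 of 40 with a row, had a median of 83.6 FPKM, 16 high and none low; PSMB4 led at 482, 481 and 447 FPKM. PSMB5, the chymotrypsin-like subunit that bortezomib binds, stood at 36.1, 37 and 32.2 FPKM, and the immunoproteasome genes PSMB8 and PSMB9, both in the MHC region, had no row.

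Promoters of these genes were read from RefSeq (GRCh38.p14) as 250 bases before to 50 bases after the start, for 9637 genes with a row and 15843 protein-coding promoters in all. The ER stress response element is written here as CCAAT, 9 bases, then CCACG, searched on both strands, and its first box is also counted as a CCAAT match. It was found in 6 of 32 ER chaperone promoters (18.75%) against 19 of all 15843 (0.1199%), and in XBP1. The 19 include these genes, and outside the secretory lists it was found in 12 of 15682 promoters (0.07652%). The element is named for the ER stress response that ER chaperones serve, so these shares are a description and not a test. The following stretches show it, each 5′ to 3′ on the gene's strand and before the start site, with the CCAAT and CCACG boxes, or their complements ATTGG and CGTGG, in capitals.
CALR (chr19:12938364-12938422, plus strand): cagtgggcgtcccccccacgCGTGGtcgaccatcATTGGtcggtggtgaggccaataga
XBP1 (chr22:28800583-28800641, minus strand): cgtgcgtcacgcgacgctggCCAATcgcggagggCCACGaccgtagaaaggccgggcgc
HSPA5 (chr9:125241371-125241429, minus strand): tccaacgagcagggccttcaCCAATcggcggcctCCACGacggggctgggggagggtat
CANX (chr5:179698758-179698816, plus strand): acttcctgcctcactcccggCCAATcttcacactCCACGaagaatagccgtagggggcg
CRELD2 (chr22:49918534-49918592, plus strand): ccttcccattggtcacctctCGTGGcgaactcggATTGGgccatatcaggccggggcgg
HSP90B1 (chr12:103930196-103930359, plus strand): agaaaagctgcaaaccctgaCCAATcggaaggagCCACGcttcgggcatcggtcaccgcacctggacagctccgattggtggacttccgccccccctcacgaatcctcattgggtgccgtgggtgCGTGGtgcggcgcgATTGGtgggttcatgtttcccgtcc

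The HSP90B1 stretch holds the element on both strands, starting 194 and 89 bases before the start site. In CALR it starts 225 bases before, in CANX 151, in CRELD2 80, in HSPA5 66 and in XBP1 52. The levels behind these promoters were 632 FPKM for CALR, 483 for HSP90B1, 483 for XBP1, 215 for HSPA5, 205 for CANX and 33.6 for CRELD2. The sixth chaperone promoter with the element was that of ERO1B, at 0.85 FPKM, so the element stood before genes at both ends of the range. It was present in 6 of 963 promoters of the highest 10% of genes (0.6231%) and in 2 of 964 of the lowest 10% (0.2075%).

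A shorter element of the same response, TGACGTGG on either strand (its complement CCACGTCA also holds the CCACG box), was found in 10 of 35 promoters of the transport list (28.57%) against 132 of all 15843 (0.8332%). With the 250 bases before the start alone, the shares were 17.14% and 0.6817%. These stretches show it in capitals, or its complement, for the transport genes ARF1, COPB2 and KDELR3, the degradation genes VCP and UBE2J1 and the chaperone HYOU1, which differ widely in level.
ARF1 (chr1:228082672-228082707, plus strand): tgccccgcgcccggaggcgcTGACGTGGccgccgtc
VCP (chr9:35072787-35072834, minus strand): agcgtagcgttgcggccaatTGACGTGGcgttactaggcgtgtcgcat
UBE2J1 (chr6:89352926-89352972, minus strand): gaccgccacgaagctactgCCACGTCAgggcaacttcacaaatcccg
HYOU1 (chr11:119057366-119057413, minus strand): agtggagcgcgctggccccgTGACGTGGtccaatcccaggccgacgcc
COPB2 (chr3:139389816-139389863, minus strand): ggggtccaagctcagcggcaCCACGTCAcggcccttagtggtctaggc
KDELR3 (chr22:38468030-38468077, plus strand): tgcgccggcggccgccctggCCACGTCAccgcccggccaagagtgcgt

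ARF1, VCP, UBE2J1 and HYOU1 were high (366, 254, 157 and 126 FPKM), COPB2 stood at 59.7 FPKM and KDELR3 at 0.6 FPKM. TGACGTGG was found in 1.142% of promoters of the highest 10% and 0.8299% of the lowest. A match is a description of these letters and not a measured binding site.

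Common promoter elements were counted in the same windows. The GC box GGGCGG was found in 70.1% of promoters of genes with a row and 40.48% of those without, and TATAAA in 5.354% and 16.26%. When the genes with a row were cut into 10 classes of equal size by level, TATAAA was found in 7.78% of the lowest class, 3.112% of class 8 and of class 9, and 8.411% of the highest. CCAAT was found in 33.51% of the lowest and 41.33% of the highest 10%, and the E box CACGTG, which MYC and its relatives bind, in 7.365% and 12.88%. Median GC content of the 300 bases was 63.67% and 65% in these 2 classes and 57.33% in genes without a row. Within the cholesterol list 20 of 21 promoters held GGGCGG, and 7 of 11 histone promoters held TATAAA.

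The list of translocation targets and of the MAF programme had 18 of 23 genes with a row, 6 high, 3 low and a median of 14.6 FPKM. MAF (123 FPKM) and its known targets CCR1 (146, 146 and 162 FPKM), ARID5A (231 ± 13.9 FPKM) and CCND2 (109, 114 and 105 FPKM) were high, and MYC and ITGB7 completed the 6 high members. CCND1, the D cyclin of another translocation class, measured 2.54, 2.55 and 2.41 FPKM and CCND3 23.4 ± 2.79 FPKM, so CCND2 exceeded both in every library. NSD2, the histone methyltransferase of a further class, stood at 25 to 26.6 FPKM and its partner FGFR3 had no row. MAFA had no row. Members of the MAF programme that were not high were NUAK1 (18.8 FPKM), TLR4 (7.82 FPKM), RND3 (5.09 FPKM), CX3CR1 (1.94 FPKM) and the phosphatase PTPRJ (0.599 FPKM), while SPP1, CDH1 and ETV1 had no row. WWOX, the tumour suppressor next to MAF on chromosome 16 and overlapping it there (chr16:78099654-79212667), had 0.783, 0.808 and 0.775 FPKM. The list was drawn with MAF and ITGB7 known to be high in these cells, and its counts are a description.

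Of 36 tumour suppressors and recurrently mutated genes, 29 had a row, and CDKN2A, CDKN2B, CDKN2C, FAF1, LTB, FGFR3 and H1-4 had none. CDKN2C, which encodes the CDK4 and CDK6 inhibitor p18, and FAF1, an apoptosis-related adaptor, lie side by side on chromosome 1 (chr1:50437028-50974634). AGBL4, BEND5, ELAVL4 and DMRTA2 below and C1orf185 above them in coordinates also had no row. Of all protein-coding genes 57.87% had a row, so genes without a row are common. The nearest protein-coding neighbours with a row were RNF11 (16 FPKM) and EPS15 (15.2 FPKM) on the higher-coordinate side and SPATA6 (0.386 FPKM) on the other. RB1 measured 11.9 FPKM, CDKN1B 97.3 ± 7.63 FPKM, TRAF3, a brake on noncanonical NF-kB signalling, 8.21 FPKM and the exosome nuclease DIS3 4.77 FPKM. Transcript levels do not show whether a gene is mutated or lost.

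Signalling genes of the RAS, MAPK and PI3K pathways had a median of 20.2 FPKM. Of 40 genes 37 had a row and 3 were high, beside 5.21% high over all genes. PIM2, the phosphatase DUSP5 (153 FPKM) and MAP2K2 (106 FPKM) were the high members. NRAS, a RAS gene often mutated in myeloma, stood at 25.2 ± 1.96 FPKM. HRAS had 1.34, 0.318 and 1.77 FPKM, from 58, 13 and 64 reads, and PIK3CD 0.988 FPKM. Of the BCL2 family, 15 of 18 had a row and MCL1 alone was high (142, 143 and 132 FPKM), a count near the 5.21% high over all genes. BCL2L1 followed at 97.4 ± 9.33 FPKM, and BCL2, the target of venetoclax, had 17.2, 16.6 and 14.3 FPKM. BCL2L2 was low (0.421 FPKM) and is part of a readthrough locus, and BCL2A1 had no row. Among NF-kB genes, TNFRSF13B (TACI) stood at 141 ± 4.13 FPKM, the inhibitor TNFAIP3 at 83 FPKM and the subunit NFKB2 at 80.2 FPKM, against RELA 48.7, NFKB1 29.6, RELB 16.1 and REL 0.408 FPKM.

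The machinery on which lenalidomide acts varied in level, with a list median of 23.8 FPKM over 16 genes with a row. CRBN (cereblon, the drug's receptor in a ubiquitin ligase) measured 14.7, 13.2 and 13.3 FPKM, near the middle of the table at rank 5242. Its ligase partners DDB1, RBX1, CUL4A and CUL4B stood at 97.4, 88.7, 30.1 and 13.7 FPKM, with DDB1 and RBX1 in the top 10%. Of the proteins that the drug sends to degradation, CSNK1A1 had 58.9 ± 1.98 FPKM, ZNF692 46.4 FPKM and ZFP91 22.7 FPKM, while SALL4 had no row and ZBTB16 stood at 0.558 FPKM.

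Cytokine receptors ranged from 0.452 to 146 FPKM. Of 27 genes 22 had a row, with a median of 7.55 FPKM, below the 9.79 FPKM of all genes. Of these 22, 2 were high and 1 was low, beside 5.21% high and 12.1% low over all genes. IL2RG, the common gamma chain, had 145, 141 and 153 FPKM, and IL6R, the receptor of the myeloma growth factor interleukin-6, had 109, 109 and 119 FPKM. IL6ST (gp130), the signalling chain that IL6R needs, stood at 43.5, 42.7 and 36.2 FPKM, below IL6R in every library. IL2RA, IL2RB, IL7R and OSMR had no row and LIFR stood at 0.452 FPKM. IFNGR2 measured 2.15, 7.88 and 2.57 FPKM, with replicate 2 alone above 3 FPKM.

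Growth factor receptors were the lowest of the receptor groups outside the MHC list, with a median of 1.98 FPKM. Of 33 genes 19 had a row, a share near the 57.87% of all protein-coding genes. None was high and 7 were low, beside 5.21% high and 12.1% low over all genes. FZD6, a Wnt receptor, led at 18.2 FPKM, followed by NOTCH1 (13 FPKM), NOTCH2 (10.6 FPKM) and INSR (9.55 ± 0.369 FPKM). IGF1R, which carries survival signals in myeloma, had 5.63 ± 0.399 FPKM, below INSR in every library. The lowest were EPHB4, FGFR2 and ROR1 (0.233, 0.134 and 0.122 FPKM), and EGFR, KIT, ERBB3, KDR and FGFR3 were among the 14 with no row.

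Adhesion and homing receptors had a median of 21.1 FPKM over 21 of 32 genes, 4 of them high: ITGB7, SELPLG (the ligand of P-selectin, 302, 293 and 393 FPKM), CCR1 and ICAM3 (137 FPKM). CXCR4, which retains plasma cells in marrow, stood at 63.1 ± 2.34 FPKM and CCR10 at 34.7 FPKM. ITGA4, a partner of ITGB7, had 35.1 ± 1.43 FPKM and ITGB1 24.1 ± 0.923 FPKM, so the beta-7 chain stood far above both. ITGB2, CXCR5, CCR7 and S1PR1 had no row. Of the TNF receptor family 10 of 19 had a row, with TNFRSF17 and TNFRSF13B high and FAS at 8.19 FPKM. TNFRSF14 measured 0.236, 1.12 and 0.254 FPKM in WT replicates 1, 2 and 3, from 29, 130 and 26 reads. Nuclear receptors were modest, with a median of 3.93 FPKM and none high among 25 of 35. NR1H2 (the liver X receptor beta, 46 FPKM), ESRRA (32.2 FPKM), RARA (27.8 FPKM) and VDR (19.2 FPKM) led, and NR3C1, the glucocorticoid receptor through which dexamethasone acts, had 11.3, 11.4 and 10.7 FPKM. RXRB (in the MHC region), ESR1 and NR2F2 were among the 5 low members. Pattern recognition genes had a median of 5.96 FPKM, with the kinase IRAK1 (138 FPKM) high and TLR3 (0.424 FPKM) low.

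**Figure D5:**
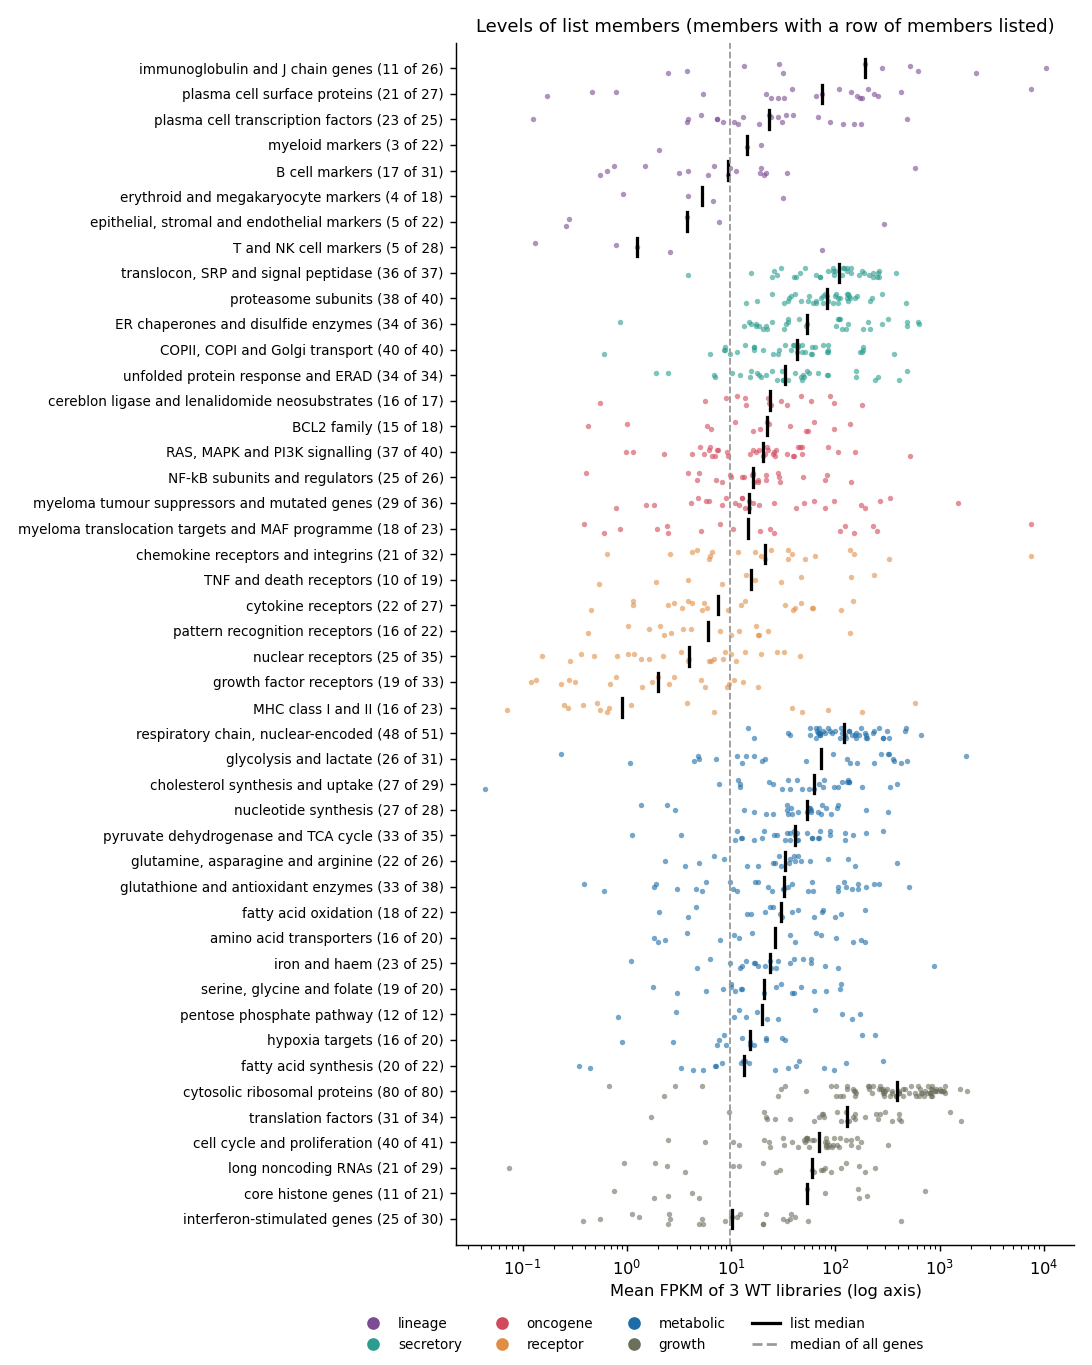
Mean FPKM (horizontal log axis) of each list member with a row, for 46 lists grouped by colour into 6 themes; labels give members with a row of members listed, black bars are list medians and the dashed line is the median of all genes (9.79 FPKM). Ribosomal proteins, translation factors, the respiratory chain and the translocon lie farthest to the right. So does the immunoglobulin and J chain list, which also holds plasma cell secretory genes. The MHC and growth factor receptor lists lie farthest to the left apart from the marker lists of other lineages.

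Glycolysis and lactate genes, 26 of 31 with a row, had a median of 73.3 FPKM and 12 were high. After GAPDH came LDHB (503, 507 and 445 FPKM) and LDHA (439, 447 and 385 FPKM), the 2 lactate dehydrogenase chains, and ENO1, TPI1 and ALDOA (363, 358 and 325 FPKM). The entry steps were lower: the transporter SLC2A1 had 12.6 ± 1.15 FPKM, HK2 13.9 ± 0.412 FPKM, HK1 7.13 FPKM and SLC2A3 4.4 FPKM. Of the phosphofructokinases, PFKL had 160 ± 11.2 FPKM and PFKM 52.6 FPKM, and PFKP had no row. In the pentose phosphate pathway TALDO1, TKT and PGD were high (173, 145 and 115 FPKM).

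The nuclear-encoded respiratory chain list had 48 of 51 with a row, 27 high and 42 in the top 10%, and a median of 120 FPKM. ATP5F1B, the catalytic subunit of ATP synthase, led at 680, 677 and 642 FPKM, and NDUFV2, of complex I, had 523, 511 and 403 FPKM. The median ratio of replicate 3 to the other libraries was 0.7769, and the list summed to 8025, 8044 and 6429 FPKM in WT replicates 1, 2 and 3. None of the 13 protein genes of the mitochondrial genome had a row. In the citric acid cycle (33 of 35, median 41 FPKM) IDH2, the mitochondrial NADP-dependent dehydrogenase, was highest at 269, 269 and 314 FPKM, against 34.3 FPKM for the cytosolic IDH1. Fatty acid oxidation had a median of 30.2 FPKM, led by ACADVL (190 FPKM), the first enzyme of very long chain oxidation, and HADHA (113 FPKM).

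Sterol synthesis had the highest median of the lipid lists. Of 29 genes 27 had a row, 14 lay in the top 10% and 9 were high, with a median of 62.5 FPKM. FDPS, the prenyl synthase that bisphosphonate drugs inhibit, had 387, 394 and 382 FPKM and INSIG1, the sterol-dependent brake on the pathway, 342, 340 and 328 FPKM. SQLE, the squalene epoxidase, had 11.6 FPKM and the desaturase SC5D 7.59 FPKM. ABCA1, which exports cholesterol, was at 0.0432 ± 0.0045 FPKM, and ABCG1 had no row. For fatty acid synthesis the median was 13.2 FPKM. SCD, the stearoyl desaturase, had 286, 286 and 293 FPKM and FASN 116, 116 and 149 FPKM. ACACA, the carboxylase that supplies FASN with malonyl-CoA, was listed at 0.503, 0.326 and 0.508 FPKM and its paralog ACACB at 7.08 FPKM. The ACACA values rest on 201, 123 and 169 reads divided by 22759 bases, against 9249 bases for ACACB. What that length covers was not tested, and the ACACA level is uncertain.

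Amino acid and nucleotide supply was led by ODC1, the first enzyme of polyamine synthesis and a known MYC target, at 389, 397 and 388 FPKM. SLC1A5 (187, 187 and 203 FPKM), SLC1A4 (174 FPKM), SLC38A5 (148 FPKM) and SLC3A2 (101 FPKM) were the high amino acid transporters, and SLC7A11, the cystine importer, had 1.83 ± 0.312 FPKM. In the serine and folate list SHMT2 and MTHFD2, the mitochondrial one-carbon enzymes, stood at 114 ± 6.45 and 110 FPKM, and PHGDH and PSPH at 40.2 and 12.6 FPKM. GLUL, which makes glutamine, had 8.6 FPKM. In the nucleotide list RRM2 (328, 324 and 297 FPKM) and IMPDH2 (197 FPKM) led, and NME2 (1.35 FPKM) is part of a readthrough locus.

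Redox and iron genes were led by GSTP1, a glutathione transferase, at 518, 510 and 491 FPKM, then SOD1 (262 FPKM), TXN (236 FPKM) and the peroxiredoxins PRDX1 to PRDX6, which ranged from 105 to 197 FPKM. Glutathione synthesis was lower, with GCLC at 11.4 FPKM and GCLM at 3.04 FPKM, and GPX4 (143 FPKM) exceeded GPX1 (9.69 FPKM). The ferritin light chain FTL exceeded the heavy chain FTH1 (108, 111 and 101 FPKM) in every library. FTH1 has many processed copies in the genome and its level is uncertain. The iron exporter SLC40A1 had 1.1 ± 0.163 FPKM and the uptake receptor TFRC 58.7 FPKM. Among hypoxia targets DDIT4 (240 ± 9.01 FPKM) and ADM (179 ± 0.994 FPKM) were high, with VEGFA at 15 FPKM, BNIP3 at 0.905 FPKM and CA9 without a row.

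Cytosolic ribosomal proteins were the highest list, all 80 with a row, a median of 390 FPKM, 71 high and 72 in the top 10%. They held 10.23% of the summed FPKM, but summed to 42574, 42423 and 33434 FPKM in WT replicates 1, 2 and 3, and the median ratio of replicate 3 to the others was 0.7462. The members at the bottom were RPL36A (5.3 FPKM), RPS18 (3.17, 3.25 and 2.3 FPKM), RPS10 (2.59, 1.85 and 2.41 FPKM) and RPS9 (0.782, 0.684 and 0.536 FPKM). RPS18 lies in the MHC region, RPS10 and RPL36A are parts of readthrough loci, and the length behind RPS9 (7144 bases) exceeds its span on the chromosome, so these 4 values are uncertain and not comparable with the rest. Translation factors had a median of 128 FPKM, with 19 of 31 high, and EIF4A1, also part of a readthrough locus, had no row.

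Proliferation genes, 40 of 41 with a row, had a median of 70.2 FPKM, 10 high and none low. Besides RRM2 they were led by PCNA (177 FPKM), the sliding clamp, MYBL2 (164 FPKM) and the helicase subunits MCM3 (161 ± 9.69 FPKM) and MCM7 (140 FPKM), with MKI67 at 87.6, 86.4 and 105 FPKM. Of the histone list 11 of 21 had a row and 4 were high, beside 5.21% high over all genes. The replication-independent variant H2AZ1, whose transcripts are polyadenylated, had 776, 790 and 602 FPKM. The clustered genes H1-2, H2BC12 and H2AC6 stood at 4.89, 4.22 and 2.47 FPKM. The part of polyadenylation in these levels was not tested. Among long noncoding RNAs GAS5 (255, 264 and 194 FPKM), MALAT1 (186, 226 and 163 FPKM) and SNHG1 (169 FPKM) were highest. Interferon-stimulated genes had a median of 10.1 FPKM, close to that of all genes, and apart from BST2 none exceeded 54.1 FPKM (STAT2).

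Spread between the libraries was small for most genes. The median coefficient of variation was 7.871% over all genes. It was 6.507% from 10 to 100 FPKM, where counting alone gives 2.925%, and 16.79% under 1 FPKM, where counting gives 18.26%. The counting value is the full Poisson value at the mean reads. A median coefficient over 3 libraries tends to fall below the true one, so these values are not strictly alike. The 10 most variable genes at 10 FPKM or more included 8 short RNA loci that lie inside other genes, such as RN7SL2 (56.8, 181 and 36.4 FPKM) and RN7SL1 (90, 192 and 60.2 FPKM), the RNA of the signal recognition particle, both with replicate 2 highest. SNORD47 and SNORD57, small nucleolar RNAs inside GAS5 and NOP56, had replicate 3 lowest, but on only 83 and 47 reads over the 3 WT libraries. The pseudogene RPL13AP5 varied most, at 39.7, 18.7 and 4.06 FPKM. NAP1L4, a histone chaperone, was the protein-coding gene among the 10, at 17, 10.7 and 6.39 FPKM.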

How the data were processed

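RNA was measured in 3 WT libraries of MM.1S cells. The authors deposited 1 table of FPKM values per gene and library. Per the submitters' processing notes, FastQC 0.11.9, HISAT2 2.2.1, featureCounts 2.0.3, edgeR 3.40.2 and the build hg38 were used. For the gene annotation, strand handling, reads with several placements and the rule for listing genes, details were not given in the sources used here, so a gene without a row cannot be called silent.

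The FPKM values were used as deposited, without further scaling. Whole reads and the gene length behind each value were recovered from the value steps. For this step alone all 6 columns were used, and all 12760 genes came out whole within 0.0005 read. The recovery was tested on simulated data. Everything else was computed from the WT columns with Python 3.11.15, numpy 2.4.6, pandas 2.3.3 and scipy 1.17.1. Means and SDs are over 3 libraries, and no test between groups was made. Table names were matched to RefSeq (GRCh38.p14), 11787 as current and 747 as older symbols; 20 were date-like and 206 unmatched.

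The lists were those of plasma cell and other lineage markers, secretory, oncogene, receptor, metabolic and growth genes. Members and lists were chosen with earlier results of these data known. Genes named are the 30 highest, the 6 markers, the highest 4 and lowest 3 members of a list, the 10 most variable at 10 FPKM or more, and other members needed to describe a list. Alternatives were other averages, scalings, filters and levels, leaving out each library, and a shorter promoter window. Some listed genes are not reported here.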

Additional observations from a re-analysis of the deposited data

How the results depend on the processing

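Rescaling every library to the same total, as TPM does, gave 2174 genes at 100 or more, 532 under 1 and a median of 25.35 on that scale. Cut-offs of 50 and 200 FPKM gave 1612 and 241 high genes, and cut-offs of 0.5 and 2 FPKM gave 748 and 2598 low genes. The median was 12.34 FPKM over genes at 1 FPKM or more, and the 30 highest genes held 14.01% of the summed FPKM with the median of the 3 libraries in place of the mean. Leaving out each WT library in turn gave 658 to 662 high genes, 1521 to 1555 low genes, shares of 4.505% to 4.785% for the top 2 and 13.93% to 13.96% for the top 30, and medians of 9.779 to 9.805 FPKM. Over all settings ITGB7 kept rank 2, while XBP1 ranged from 69 to 76, MYC from 171 to 209, IRF4 from 279 to 293, MAF from 502 to 514, PRDM1 from 745 to 831 and CD38 from 3305 to 3401. An alternative chosen after seeing the data left out 264 genes of the MHC region, of readthrough loci or with a length over 1.2 times their span, and gave 663 high and 1461 low genes. No paired analysis was possible because the result comes from no test. Depth limits the low end: 32 genes had under 10 reads in every WT library.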

Other observations

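Other gene families, chosen after their levels were seen, lay at both ends of the range. They were gathered by name, so the counts include pseudogenes and noncoding RNAs that carry a family's name, and medians are over all of these. The 21 HNRNP genes with a row, which package and splice nuclear RNA, had a median of 142.6 FPKM and 12 were high, led by HNRNPA1 at 519.5 FPKM and HNRNPA2B1 at 401.4 FPKM. CCT3, a subunit of the cytosolic chaperonin that folds actin and tubulin, had 261.7 FPKM, and the 11 names of its family with a row, pseudogenes CCT6P1 and CCT6P3 included, had a median of 120.9 FPKM. Splicing factors of the SRSF family (11 genes) and core SNRP proteins (11 genes) had medians of 83.28 and 68.63 FPKM, with SNRPB at 281.6 FPKM. Mitochondrial ribosomal proteins stood far below the cytosolic ones, at 41.2 FPKM for 50 MRPL and 33.04 FPKM for 27 MRPS genes.

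Names beginning with ZNF, mostly zinc finger genes, had 414 rows and a median of 2.95 FPKM. Of these 90 were low and 1 was high (ZNF207, 114.9 FPKM), beside 12.1% low and 5.21% high over all genes. Potassium channel genes (32, median 0.9082 FPKM) and collagen chains (13, median 0.9091 FPKM) were lower. KCNAB2, a channel subunit at 56.43 FPKM, exceeded the other potassium channel genes, and COL9A2 led the collagens at 7.723 FPKM. Of 83 protocadherin names 7 had a row (8.434%, beside 57.87% of protein-coding genes). Of these 7, 6 were low, beside 12.1% over all genes.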
